A study of Mus musculus with 8 samples.

Results

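Genes that build the mitotic spindle and the kinetochores, and that separate and divide the chromosomes and the cell, were followed in cultured mouse microglia with and without lipopolysaccharide. A fixed list of 48 such genes was matched by Ensembl identifier, through the gene symbols of GENCODE vM21, to a count table of 52636 gene identifiers, and 48 of the 48 were found. Kinesins, Cdk1 and its regulators were not on the list. The list was drawn up by function and used no measured value as a rule. Earlier results of these data were known when it was chosen.

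The cells were wild-type (WT) C57BL/6 microglia (C57BL/6N by the methods for the newborn mice), the resident macrophages of the brain, shaken off mixed glial cultures of newborn mice and kept in medium with 10% serum and 10 ng/ml CSF-1, a growth factor that microglia need to survive. The study describes its cultured microglia as alive in CSF-1 with very little division, by staining for Ki67 and phosphorylated histone H3. It also reports that mitotic cells became fewer still with LPS, almost none being left. For 24 h the cells sequenced here received 5 µg/ml LPS, a component of bacterial outer membranes that activates Toll-like receptor 4, or vehicle. The mRNA of 4 LPS and 4 vehicle cultures was sequenced, and the libraries held from 20071921 to 30604447 counts. Libraries are called here by their group and replicate number, and the labels name the replicates biological without saying whether they came from separate animals, so p-values measure the spread between these libraries.

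Early in mitosis the kinases Plk1, Aurora A and Aurora B are among those that promote spindle assembly and chromosome condensation. Kinetochores, built on centromeres marked by the histone variant Cenpa, attach chromosomes to microtubules, and the spindle checkpoint holds back the anaphase-promoting complex (APC/C) until all are attached. The APC/C with Cdc20 then marks securin (Pttg1) for destruction, which frees separase (Espl1) to cleave cohesin, and the midzone and contractile ring divide the cell. Transcripts of most of these genes peak in G2 and mitosis and are low in resting cells, so they are widely read as proliferation markers. Microglia in the healthy adult brain divide rarely.

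Most of the mitotic genes were far lower after LPS. Of the 48 members, 43 fell, 2 rose (Hjurp and Pttg1) and 3 did not pass the test (Tpx2, Incenp and Bub3), by edgeR's quasi-likelihood test at an adjusted p under 0.05. Among all 13847 genes tested, 33.8% were called lower and 30.3% higher, so a call alone was common in this comparison. Larger falls were less common: 39 members were called lower with a log2 fold change under -2, against 9.42% of all tested genes. Below -3 were 30 members, and the share of all genes below -3 was not counted. Of the 48 members, 21 had at most 10 counts in some LPS library and passed the filter on low counts through the vehicle libraries. The counts below -2 and -3 were not repeated without these 21. The median log2 fold change of the members was -3.52, an 11.5-fold lower level, beside a median of -0.11 over all tested genes. It ran from -6.65 for Aspm to 1.82 for Pttg1.

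The separation was visible in the scaled levels of single libraries. For 42 members every LPS library lay below every vehicle library, as was so for 31.5% of all tested genes, and for 2 members every LPS library lay above, as was so for 28.7%. The groups overlapped for the remaining 4, which were Tpx2, Incenp, Bub3 and Smc4. Summed over the members, levels in CPM (counts scaled to library size with TMM factors) were 684, 1106, 1330 and 1325 in vehicle replicates 1 to 4 and 440, 474, 515 and 485 in LPS replicates 1 to 4. The TMM factors ran from 1.21 to 1.32 in vehicle and from 0.701 to 0.833 in LPS, so group differences in CPM rest in part on them. Most of what was left after LPS came from few genes. Hjurp, Pttg1, Incenp, Bub3, Smc4 and Tpx2 together held 298 ± 49.3 CPM in vehicle and 399 ± 20.8 CPM in LPS (SD, n = 4), whereas the other 42 members held 813 ± 254 CPM in vehicle and 79.9 ± 10.2 CPM in LPS. These 6 were grouped after their values were seen, and the other 42 were each called lower, with log2 fold changes of at most -1.74.

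**Figure D1:**
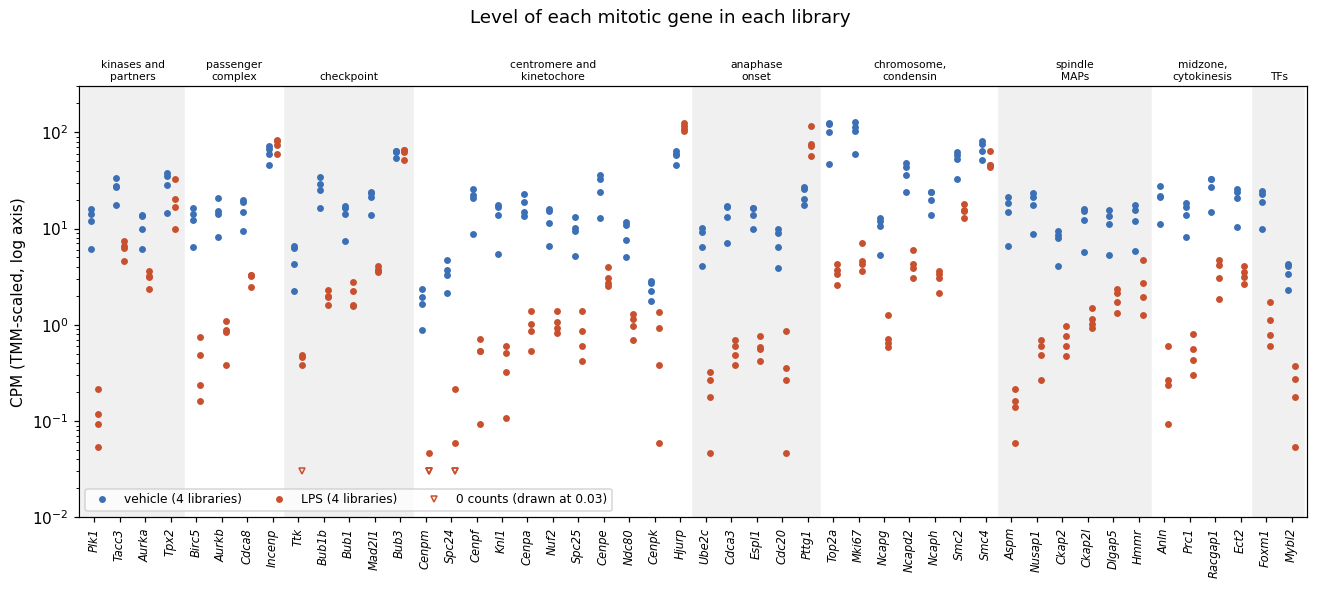
Level of each of the 48 mitotic genes in each library, in CPM on a log axis, with 4 vehicle (blue) and 4 LPS (red) points per gene and open triangles for libraries with 0 counts. Genes are grouped by role (MAPs are microtubule-associated proteins, TFs transcription factors). LPS points lie below vehicle points for 42 genes and above them for Hjurp and Pttg1.

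All 48 members passed the filter on low counts, but 21 had 10 counts or fewer in at least 1 LPS library and so passed through the vehicle libraries. With at least 10 counts asked of every library, 27 members remained, of which 22 were lower and 2 higher, with a median of -2.64. Of all 11203 genes tested in that way, 3865 were lower and 3595 higher, with a median of -0.044. The lower ones then numbered 1 in the passenger complex, 3 at the kinetochore, 3 among spindle microtubule proteins, 2 in cytokinesis and 1 of the transcription factors, and at anaphase onset no member that fell was still tested. In bulk RNA, fewer cells of a dividing kind and less of the transcript per cell cannot be told apart, and this holds for each result that follows.

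The start regions of the members shared short sequences that the list did not use. The cell cycle genes homology region (CHR) is a promoter element bound by MuvB complexes, which repress late cell cycle genes in resting cells as part of DREAM and activate them in G2 with Mybl2 and Foxm1. The CCAAT box is bound by NF-Y and often lies upstream of a CHR in these genes. RefSeq windows of 300 bases (GRCm38.p6, 250 before and 50 after each annotated start) were found for 41 members, in 46 windows. For 37 of the windows, bases just after the start were found in a GENCODE transcript of the same gene. No window was used for Spc24, Incenp, Tpx2, Smc4, Aurkb, Foxm1 and Dlgap5. The stretches that follow are the last 120 bases before the start, read 5′ to 3′ on the gene's strand, with CHR letters (TTTGAA or TTCGAA on either strand) and the CCAAT box (CCAAT on either strand) in capitals. They show 2 members of anaphase onset that fell (Cdc20, Ube2c), the member with the highest vehicle CPM (Mki67), a kinetochore member that was nearly absent after LPS (Cenpm), a member that did not pass the test (Bub3) and the member that rose most (Pttg1).

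The 6 stretches are these.
Cdc20 (chr4:118437344-118437463, minus strand): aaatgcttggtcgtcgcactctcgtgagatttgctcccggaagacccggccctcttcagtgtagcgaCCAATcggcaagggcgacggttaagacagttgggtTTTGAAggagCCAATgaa
Ube2c (chr2:164769809-164769928, plus strand): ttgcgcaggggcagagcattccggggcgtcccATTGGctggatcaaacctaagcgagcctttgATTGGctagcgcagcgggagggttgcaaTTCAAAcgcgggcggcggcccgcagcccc
Mki67 (chr7:135716380-135716499, minus strand): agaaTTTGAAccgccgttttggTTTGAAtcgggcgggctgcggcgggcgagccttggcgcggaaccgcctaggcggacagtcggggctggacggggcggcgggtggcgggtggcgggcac
Cenpm (chr15:82244337-82244456, minus strand): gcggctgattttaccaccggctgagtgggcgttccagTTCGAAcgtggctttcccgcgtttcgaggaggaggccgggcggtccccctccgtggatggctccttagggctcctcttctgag
Bub3 (chr7:131560250-131560369, plus strand): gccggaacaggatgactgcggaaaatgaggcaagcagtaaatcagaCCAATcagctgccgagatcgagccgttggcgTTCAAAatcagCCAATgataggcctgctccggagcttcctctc
Pttg1 (chr11:43425982-43426101, minus strand): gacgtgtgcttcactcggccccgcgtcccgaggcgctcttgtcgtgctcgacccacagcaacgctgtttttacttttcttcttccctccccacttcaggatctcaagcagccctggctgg

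In the whole window, 31 of 41 members (75.6%) held a CHR, compared with 21.7% of all 27025 genes with a window and 16.4% of the 9831 tested genes with one. A CCAAT box was in 30 of 41 members (73.2%), compared with 41.1% of all genes with a window and 42.8% of the tested ones. Of the members, 28 held both motifs and 8 held neither, and 1 CHR match overlapped a CCAAT box. These shares are descriptions of letters, with no test, and do not show that a factor was bound. The CHR matches lay close to the start, within 50 bases of it in 27 members, and many lay after it: with the 250 upstream bases alone, 15 of 41 members (36.6%) held a CHR, against 19.6% of all genes with a window.

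Falls were found with and without the motif. Of the 31 members with a CHR, 29 were lower, Hjurp was higher and Bub3 did not pass the test, with a median log2 fold change of -3.73. Of the 10 without a CHR in the window, 9 were lower and Pttg1 was higher, with a median of -2.91. The Bub3 stretch printed above carries a CHR and CCAAT boxes as those of Cdc20 and Ube2c do, although its transcript level was 61.0 ± 4.79 CPM in vehicle and 61.3 ± 6.49 CPM in LPS (SD, n = 4). The Pttg1 stretch carries neither motif, but its whole window lies inside the GENCODE bounds of the gene. Bases before the GENCODE start of Pttg1 were therefore not searched. The Cenpm and Bub3 stretches also lie inside the GENCODE bounds of their genes.

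**Figure D2:**
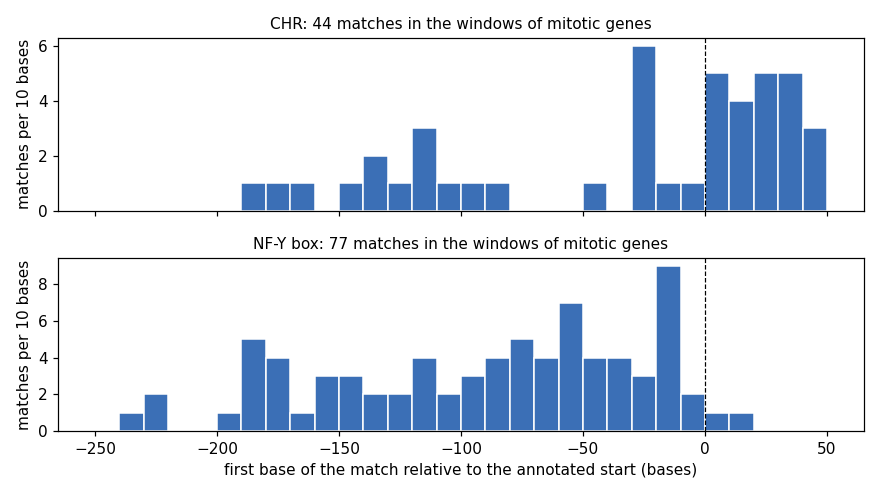
Positions of the first base of each CHR match (top) and NF-Y (CCAAT) box match (bottom) relative to the annotated start in bases, counted per 10 bases over the 46 windows of the 41 members, where windows of the same gene can share a match. The 44 CHR matches gather around and after the start, while nearly all of the 77 NF-Y box matches lie before it.

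Among the mitotic kinases and their spindle partners, 3 of 4 fell and Tpx2 did not pass the test. Plk1, the polo-like kinase that drives mitotic entry and spindle assembly, measured 6.20, 11.9, 15.9 and 14.1 CPM in vehicle and 0.120, 0.0545, 0.0933 and 0.216 CPM in LPS. Its LPS libraries held between 1 and 4 counts, every one far under the lowest vehicle library. The log2 fold change was -6.58 ± 0.44 (SE, adjusted p = 1.87e-06). Aurka, the Aurora A kinase of spindle poles, fell less, with a log2 fold change of -1.81 ± 0.27, as did Tacc3, which Aurora A recruits to spindle microtubules, at -2.08 ± 0.22. Tpx2, the protein that activates Aurora A on the spindle (chromosome 2, 152847964 to 152895321, plus strand, GRCm38), measured 14.4, 28.3, 37.8 and 35.0 CPM in vehicle and 9.87, 16.6, 32.6 and 20.1 CPM in LPS. The groups overlapped, and the difference of -0.54 ± 0.37 had an adjusted p of 0.225. The order of the libraries by replicate number was the same in both groups, and with the replicate number as a block the log2 fold change of -0.58 had an adjusted p of 0.00713.

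In the chromosomal passenger complex, 3 of 4 subunits fell and the scaffold did not. The complex joins the kinase Aurora B (Aurkb) to Incenp, its scaffold and activator, and to survivin (Birc5) and borealin (Cdca8), which place it on the centromere. Birc5 measured 6.44, 12.4, 14.3 and 16.2 CPM in vehicle and 0.239, 0.163, 0.746 and 0.487 CPM in LPS, a log2 fold change of -4.86 ± 0.45 (adjusted p = 1.26e-05). The LPS libraries of Birc5 held between 3 and 16 counts, so it passed the filter on low counts through the vehicle libraries. Aurkb fell by 4.18 and Cdca8 fell by 2.36 on the log2 scale. Incenp (chromosome 19, 9872296 to 9899551, minus strand) measured 45.9, 58.7, 71.2 and 67.0 CPM in vehicle and 73.7, 81.2, 59.8 and 83.6 CPM in LPS. Its groups overlapped, with a log2 fold change of 0.30 ± 0.16 and an adjusted p of 0.124, which was 0.0462 without vehicle replicate 3 and 0.04 without LPS replicate 3. Per length of the union of exons, Incenp had the highest vehicle level of the 48, at 14.0 RPKM, against 4.93 RPKM for Aurkb. Per length of the longest transcript, Top2a was higher in vehicle, at 18.7 RPKM against 17.6 RPKM for Incenp.

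The spindle checkpoint showed the same split, with 4 of 5 members lower. Ttk (Mps1), the kinase that starts checkpoint signalling, measured 2.24, 4.33, 6.53 and 6.21 CPM in vehicle and 0, 0.381, 0.466 and 0.487 CPM in LPS, a log2 fold change of -3.80 ± 0.60 (adjusted p = 0.000397). Every LPS library of Ttk lay below every vehicle library, but each held at most 10 counts. Ttk therefore passed the filter on low counts through the vehicle libraries. Bub1b (BubR1), a subunit of the complex that inhibits Cdc20, had a log2 fold change of -3.73, Bub1 of -2.75 and Mad2l1 (Mad2), which binds Cdc20, of -2.45. Bub3, the WD40 protein that brings Bub1 and BubR1 to kinetochores (chromosome 7, 131560222 to 131571895, plus strand), measured 53.9, 63.7, 62.6 and 64.0 CPM in vehicle and 62.8, 65.3, 51.7 and 65.2 CPM in LPS. Its groups overlapped, with a log2 fold change of 0.005 ± 0.107 (adjusted p = 0.969), and the sign changed between scalings and with single libraries left out.

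At the centromere and kinetochore, 10 of 11 members fell, with a median log2 fold change of -3.53. The exception was Hjurp, the chaperone that deposits Cenpa on centromeres (chromosome 1, 88262471 to 88277633, minus strand). Hjurp measured 45.1, 58.0, 59.9 and 63.8 CPM in vehicle and 125.6, 108.9, 102.2 and 117 CPM in LPS. All 4 LPS libraries lay above all 4 vehicle libraries, a 2.00-fold higher level with a log2 fold change of 1.00 ± 0.13 (adjusted p = 8.9e-05). This full separation rested on the TMM factors. Vehicle replicate 4 held 1797 Hjurp counts of 21370879, and LPS replicate 3 held 2191 of 30604447, a lower share. Hjurp was still called higher with upper quartile and RLE factors and with DESeq2. Its client Cenpa, the centromeric histone H3 variant, went from 17.4 ± 4.29 to 0.959 ± 0.357 CPM (SD, n = 4), a log2 fold change of -4.16 ± 0.29.

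Cenpm, a subunit of the inner kinetochore network (chromosome 15, 82233779 to 82244748, minus strand), was nearly absent after LPS. It measured 0.875, 1.63, 2.38 and 1.95 CPM in vehicle, and its LPS libraries held 0, 0, 1 and 0 counts. Pooled over libraries, 202 vehicle counts against 1 LPS count gave a vehicle level 129 times that of LPS, with a 95% interval from 23.0 to 5132 (exact binomial, counting error only). Cenpk, of the same network, was the member of this group with the smallest fall, at -1.78 ± 0.58 and an adjusted p of 0.0222, which was 0.0526 without vehicle replicate 4 and 0.0634 without LPS replicate 4.

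All 4 subunits of the Ndc80 complex, the main microtubule coupler of the outer kinetochore, fell. The log2 fold changes were -3.08 for Ndc80, -3.53 for Nuf2, -5.59 for Spc24 and -3.52 for Spc25. Ndc80 and Nuf2 form the microtubule-binding end and Spc24 and Spc25 the end that faces the centromere. Spc24 held at most 4 counts in any LPS library, so its larger value is less certain than the others (SE 0.68 against 0.32 for Ndc80). Knl1, the platform that Bub1 and Bub3 bind, fell by 5.10 on the log2 scale. Cenpf, of the outer corona, and the kinetochore motor Cenpe had log2 fold changes of -5.38 and -3.10.

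At anaphase onset, 4 of 5 members fell and securin rose. Ube2c, the ubiquitin-conjugating enzyme that starts chains for the APC/C, measured 4.09, 6.40, 10.2 and 9.09 CPM in vehicle and 0.180, 0.327, 0.0466 and 0.271 CPM in LPS, a log2 fold change of -5.17 ± 0.48 (adjusted p = 1.26e-05). The log2 fold change was -4.25 for Cdc20, the activator of the APC/C, -4.57 for separase (Espl1) and -4.62 for Cdca3, a trigger of mitotic entry. Every LPS library of these 4 genes lay below every vehicle library, but each gene had under 10 counts in at least 1 LPS library and passed the filter on low counts through the vehicle libraries. Of the exonic bases of Ube2c, 22.8% are covered by antisense exons of Tnnc2, and without stated strand use reads there cannot be told apart. The next largest opposite-strand overlaps were of Ncapg with Lcorl (13.4%) and of Prc1 with Rccd1 (11.1%).

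Pttg1, which encodes securin, the inhibitor and chaperone of separase (chromosome 11, 43420250 to 43426251, minus strand), was the member that rose most. It measured 17.4, 25.7, 27.0 and 20.1 CPM in vehicle and 56.8, 76.0, 114.9 and 71.9 CPM in LPS. Each LPS library was above the highest vehicle library, a 3.54-fold higher level with a log2 fold change of 1.82 ± 0.23 (adjusted p = 8.18e-05). Per length, Pttg1 went from 11.3 to 39.95 RPKM and was the most abundant member after LPS. No exon of another annotated gene overlaps Pttg1 or Hjurp.

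Among genes of chromosome structure, all 7 were called lower, by very different amounts. Mki67, which encodes the Ki-67 protein that coats mitotic chromosomes and is the usual marker of proliferation, measured 59.9, 104, 114 and 127 CPM in vehicle and 4.31, 3.59, 7.09 and 4.60 CPM in LPS. Top2a, the topoisomerase that untangles sister chromatids, measured 46.3, 100.3, 123 and 121 CPM in vehicle and 3.71, 3.38, 2.61 and 4.33 CPM in LPS. For both genes even the lowest vehicle library was several times the highest LPS library. The log2 fold changes were -4.36 ± 0.29 for Mki67 (adjusted p = 1.81e-06) and -4.80 ± 0.34 for Top2a (adjusted p = 2.24e-06).

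Condensin I, the ring that compacts chromosomes, did not move as a unit. Its regulatory subunits fell, with log2 fold changes of -3.63 for Ncapg, -3.14 for Ncapd2 and -2.73 for Ncaph. The ATPase subunits, which condensin I shares with condensin II, had smaller differences, at -1.74 ± 0.20 for Smc2 and -0.46 ± 0.17 for Smc4. Smc4 (chromosome 3, 69004738 to 69034623, plus strand) measured 51.9, 63.8, 81.0 and 75.7 CPM in vehicle and 45.5, 45.6, 63.3 and 43.9 CPM in LPS, and LPS replicate 3 lay among the vehicle libraries. Its call was marginal: the adjusted p of 0.0366 became 0.078 with DESeq2 and 0.063 with RLE factors, and lay between 0.0545 and 0.123 when vehicle replicate 2, 3 or 4 or LPS replicate 1, 2 or 4 was left out.

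All 6 proteins that bind or organise spindle microtubules fell, with a median log2 fold change of -3.41. Aspm, which works at spindle poles and whose loss causes microcephaly, measured 6.51, 14.7, 18.2 and 21.5 CPM in vehicle and 0.0598, 0.163, 0.140 and 0.216 CPM in LPS. Every LPS library held 4 counts or fewer, and its log2 fold change of -6.65 ± 0.49 (adjusted p = 3.41e-06) was the lowest of the 48. Nusap1, a microtubule bundler, went from 17.7 ± 6.41 to 0.515 ± 0.184 CPM (SD, n = 4), a log2 fold change of -5.08. Hmmr, a hyaluronan receptor that also acts on the spindle, showed the smallest fall, from 12.7 ± 5.12 to 2.66 ± 1.49 CPM, a log2 fold change of -2.25 ± 0.43. Ckap2, Ckap2l and Dlgap5 had log2 fold changes of -3.41, -3.41 and -2.57.

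The midzone and cytokinesis genes also fell, 4 of 4. Anln (anillin), the scaffold of the contractile ring, measured 11.0, 21.2, 21.9 and 27.5 CPM in vehicle and 0.239, 0.599, 0.0933 and 0.271 CPM in LPS, a log2 fold change of -6.09 ± 0.45 (adjusted p = 3.26e-06). The groups lay far apart, but the LPS libraries of Anln held between 2 and 11 counts. It therefore passed the filter on low counts through the vehicle libraries. Prc1, which bundles the antiparallel microtubules of the midzone, fell by 4.73 on the log2 scale. Racgap1, of the centralspindlin complex, went from 26.6 ± 8.34 to 3.45 ± 1.28 CPM, and Ect2, the exchange factor it recruits to activate RhoA, from 20.1 ± 6.86 to 3.34 ± 0.625 CPM (SD, n = 4), with log2 fold changes of -2.95 and -2.58.

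Both transcription factors on the list fell. Foxm1, which activates G2 and mitotic genes, measured 9.94, 19.0, 24.6 and 23.0 CPM in vehicle and 0.778, 0.599, 1.12 and 1.73 CPM in LPS, a log2 fold change of -4.17 ± 0.38 (adjusted p = 1.25e-05). Mybl2 (B-Myb), which joins MuvB to activate them, measured 2.28, 4.29, 4.06 and 3.41 CPM in vehicle and 0.180, 0.272, 0.373 and 0.0541 CPM in LPS, a log2 fold change of -3.94 ± 0.44 (adjusted p = 4.36e-05). In neither gene did the groups overlap, and LPS lay wholly below vehicle for 31.5% of all tested genes. The LPS libraries of Mybl2 held between 1 and 8 counts, so it passed the filter on low counts through the vehicle libraries.

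**Figure D3:**
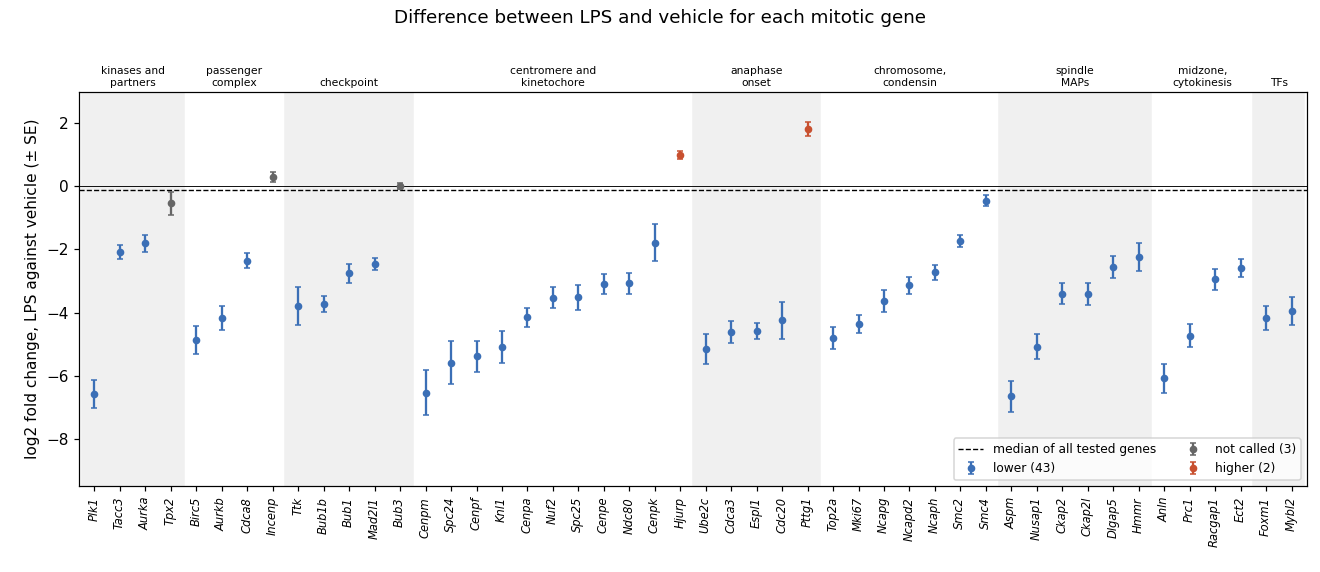
Log2 fold change of LPS against vehicle for each of the 48 mitotic genes, grouped by role and ordered within it. Bars are ± 1 SE, derived from the F statistic of the edgeR test. The dashed line is the median of all tested genes at -0.11. Of the 48 genes, 39 lie below -2, and Hjurp, Pttg1, Incenp, Bub3, Smc4 and Tpx2 are the 6 highest.

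Transcripts of members that rose or were not clearly lower parted from those of proteins they work with. Ratios of levels per length (RPKM) were taken in each library for 6 pairs chosen after the values were seen, as a description with no test. In each pair a member that rose or fell less was set over a partner that fell more. The direction of the ratios was therefore fixed by this choice and adds nothing to the fold changes above. The ratio of Incenp to Aurkb lay between 2.34 and 3.87 in vehicle and between 45.9 and 150.3 in LPS. Hjurp to Cenpa went from 1.84 to 2.78 in vehicle to between 51.4 and 164 in LPS, and Pttg1 to Espl1 from 5.45 to 8.18 in vehicle to between 436 and 898 in LPS. In these pairs the transcript of the scaffold, chaperone or inhibitor was already the higher in vehicle, and its excess was larger in every LPS library. Bub3 to Bub1 lay between 2.31 and 4.49 in vehicle and between 14.2 and 25.7 in LPS, and Smc4 to Ncapg between 8.05 and 13.2 in vehicle and between 68.2 and 100.1 in LPS. The narrowest separation was that of Tpx2 to Aurka, at 1.27 to 1.56 in vehicle and 2.29 to 4.92 in LPS. The LPS ratios rest on partners with few counts, as for Aurkb with 7 counts in LPS replicate 4.

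**Figure D4:**
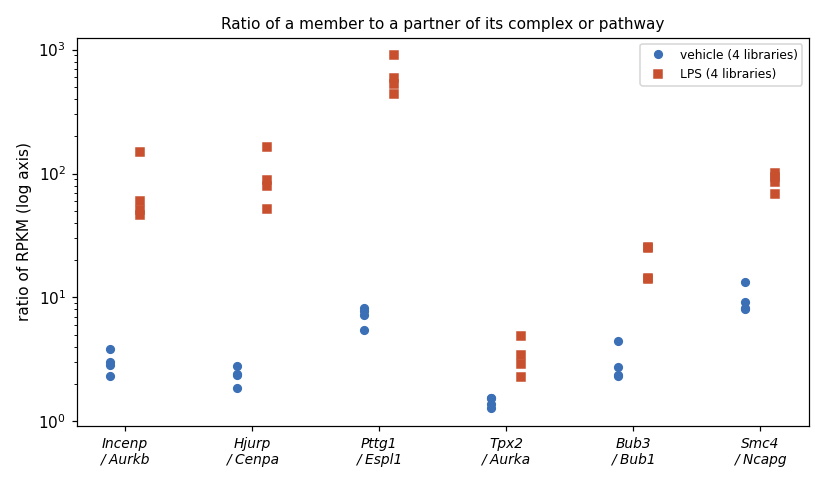
Ratio of RPKM between a mitotic gene and a partner of its complex or pathway in each vehicle (blue circles) and LPS (red squares) library, on a log axis. In all 6 pairs the LPS libraries lie above the vehicle libraries, from 2.29 to 4.92 for Tpx2 to Aurka up to 436 to 898 for Pttg1 to Espl1. The pairs were chosen after the values were seen, and that choice fixed the direction.

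Within the vehicle group the mitotic genes moved together. Vehicle replicate 1 was the lowest vehicle library for 48 of 48 members, whereas it was the lowest for 28.2% of all tested genes. Its level was a median of 47.8% of the mean of the other 3 vehicle libraries, between 34.0% and 85.0%. Vehicle replicates 3 and 4 were the highest for 26 and 21 members, and the share of all tested genes highest in each was not counted. This spread was much smaller than the difference between groups for most members. Within the replicate numbers, which the libraries of both groups share, the median log2 ratio of LPS to vehicle was -2.92, -3.24, -3.48 and -3.71 for numbers 1 to 4, with 44, 44, 46 and 44 members lower. The share of all genes lower within each number was not counted. Without replicate 1 of both groups, 43 members were lower and 2 higher, with a median of -3.65.

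**Figure D5:**
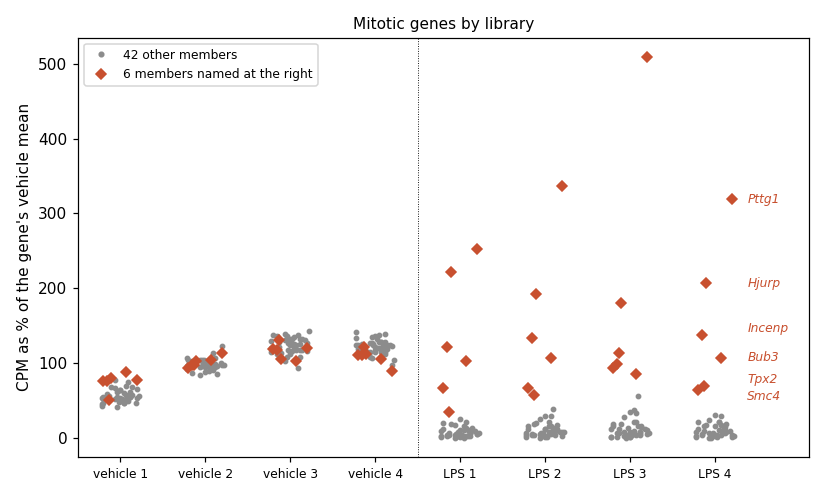
CPM of each mitotic gene in each library as a percentage of its own mean over the 4 vehicle libraries, with Hjurp, Pttg1, Incenp, Bub3, Smc4 and Tpx2 as red diamonds and the other 42 genes as grey points. The grey points are lowest among vehicle libraries in vehicle 1 and mostly lie near 0 in every LPS library.

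Other genes of the pathway that were not members behaved in part like them. Of 56 further mitotic genes, 55 were tested, 47 were lower and 5 higher (Cenpc1, Zw10, Cenpl, Mis12 and Zwint), and their median log2 fold change was -2.34. Asking at least 10 counts of every library, 26 were lower and 4 higher. The lowest was Pimreg, at -7.32, and the highest Zwint, a binding partner of Knl1 and the Zw10 complex, which went from 59.0 ± 5.37 to 160 ± 10.6 CPM (SD, n = 4), a log2 fold change of 1.44 ± 0.10. The other 3 lists were mixed. Of 16 genes of DREAM, MuvB and the E2F family 8 were lower and 6 higher (median -0.29), from E2f7 at -5.34, a repressor that is itself induced in the cell cycle, to E2f5 at 2.00, an E2F of the DREAM complex. Of 17 APC/C subunits and regulators 16 were tested, 8 were lower and 5 higher (median -0.28), from the inhibitor Fbxo5 (Emi1) at -3.39 to the subunit Anapc16 at 0.83. Of 10 cohesin subunits and regulators 2 were lower and 2 higher (median 0.10), from Pds5b at -0.87 to Rad21, the subunit that separase cuts, at 0.88. With upper quartile factors 3 genes each were higher in the DREAM and APC/C lists and 4 cohesin genes were lower. With RLE factors 4 cohesin genes were higher, and without LPS replicate 1 there were 5.

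Markers of cell types moved as well, and their part in these results was not tested. Of 12 microglial markers 10 were lower after LPS, and their summed level ran from 13160 to 16130 CPM in vehicle and from 2957 to 3618 CPM in LPS, so the cells carried the markers of their label at a lower level after LPS. The 8 markers of oligodendrocyte precursors summed to between 23.9 and 104.3 CPM in vehicle and between 54.3 and 125.2 CPM in LPS. Of 6 tested genes, 3 were lower (Cspg4, Olig1 and Olig2) and 1 higher (Vcan). Vcan went from a mean of 16.6 CPM in vehicle to 61.2 CPM in LPS and held most of the sum in every LPS library. In vehicle replicates 1 to 4 the precursor sums were 70.0, 104.3, 23.9 and 103.3 CPM, beside the member sums of 684, 1106, 1330 and 1325 CPM given before. The 9 astrocyte markers summed to between 20.5 and 46.6 CPM in vehicle and between 41.0 and 124 CPM in LPS, with Gjb6 at 3 counts or fewer. Of 8 tested genes, 3 were lower (Gfap, Aqp4 and Aldh1l1) and 1 higher (Gja1). Gja1 went from a mean of 0.873 CPM in vehicle to 48.6 CPM in LPS and held most of the sum in every LPS library.

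The remaining lists moved in different ways. Oligodendrocyte markers ran from 149.7 to 205 CPM in vehicle and 188 to 237 CPM in LPS. Of 4 tested, 1 was lower (Mbp) and 1 higher (Cnp), with Mobp at 3 counts or fewer. Fibroblast and mural markers ran from 0.497 to 3.52 CPM in vehicle and 5.30 to 21.3 CPM in LPS. Of 2 tested, 0 were lower and 1 was higher (Dcn, most of the sum in every LPS library), with Rgs5 at 3 counts or fewer. Endothelial markers ran from 31.1 to 73.5 CPM in vehicle and 163 to 254 CPM in LPS, with 3 of 3 tested genes higher, while the endothelial genes Cldn5, Tek and Esam were at 3 counts or fewer. Neuronal markers ran from 2.66 to 8.52 CPM and 2.10 to 6.46 CPM, with 2 of 4 tested genes lower.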

How the data were processed

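RNA-seq libraries of 4 LPS and 4 vehicle microglial cultures were analysed. The authors deposited raw counts per Ensembl gene of uniquely aligned reads, made with HTSeqGenie and GSNAP on GRCm38, not normalized. The labels and the methods name different library kits and sequencers, and strand use and annotation release are not given in the sources used here, so overlapping genes may share counts: 19.3% of the 50-base windows of Mybl2 occur in other genes, and an antisense gene overlaps 5.8% of Ckap2l. Symbols and lengths came from GENCODE vM21, and promoter windows from RefSeq (GRCm38.p6).

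Counts were tested with edgeR 4.0.16 in R 4.3.3 (TMM, filterByExpr with a minimum count of 10, quasi-likelihood test, two-sided, Benjamini-Hochberg over 13847 genes, threshold 0.05). The SE of a log2 fold change was its absolute value divided by the square root of the F statistic of that test. DESeq2 1.42.0 was an alternative. Scripts were tested on simulated data. CPM used TMM-scaled library sizes, and RPKM divided CPM by the union of exons. Same-numbered libraries deviated together (r = 0.373, 0.196, 0.171 and 0.108 for numbers 1 to 4 over 8010 genes), so numbers were treated as pairs in the blocked fit. Pairs of different numbers ran from -0.21 to 0.146, and for number 4 the different-number values of 0.146 (vehicle 2 with LPS 4) and 0.137 (vehicle 4 with LPS 2) were the higher.

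Members and lists were chosen with earlier results of these data known. Named with full values were, per role, the member with the highest vehicle CPM and those with the lowest and highest log2 fold change, every member called higher or not called, and Mki67, Top2a, Foxm1 and Mybl2. Of the other lists, the lowest and highest were named, and further genes were chosen after their values were seen. Other normalizations, filters, a threshold of 0.01, and leaving out libraries were tried.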

Additional observations from a re-analysis of the deposited data

Results flagged for a closer look

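In 110 groups of 4 libraries examined for the mitotic genes, 5 held a library far from the other 3 by Dixon's test at its 95% critical value, and chance alone gives about 1 in 20. Cdca8 was low in LPS replicate 1, at 2.45 CPM against 3.21 to 3.30 CPM in the others. Bub3 was low in vehicle replicate 1, at 53.9 CPM against 62.6 to 64.0 CPM. Smc4 was high in LPS replicate 3, at 63.3 CPM against 43.9 to 45.6 CPM. The ratio of Incenp to Aurkb was high in LPS replicate 4, at 150.3 against 45.9 to 59.8. Cenpm stood at 0.0466 CPM in LPS replicate 3 and at 0 in the others, which is a difference of 1 count.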

How the results depend on the processing

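Of 795 pairs of a member and an alternative, over 17 alternatives, 772 kept the direction and the side of the threshold of the reported fit, and 43 of 48 members did so in every alternative in which they could be tested. The exceptions were Smc4, Cenpk, Tpx2, Incenp and Bub3. Asking at least 10 counts in every library left 27 members, of which 22 were lower, with a median log2 fold change of -2.64, since the members with few LPS counts were no longer tested. Bub3, near 0 throughout, changed sign to -0.15 with upper quartile factors, -0.03 without a filter, -0.048 with at least 10 counts in every library and -0.066 without replicate 1 of both groups, and ran from -0.018 to 0.085 with single libraries left out. Smc4 and Cenpk were also lost at a threshold of 0.01. With the replicate number as a block, 44 members were lower and 2 higher, Tpx2 being added, and 4934 of all tested genes were lower. The block changed no other call of a member. Upper quartile factors moved the median of all genes from -0.11 to -0.27 and that of the members to -3.68, and leaving out single libraries gave medians from -3.70 to -3.35 with 41 to 43 members lower. Leaving out replicate 1 of both groups, or vehicle replicate 3 with LPS replicate 1, was added after seeing the data, and the latter gave 42 lower and a median of -3.25. At these depths 1 count in an LPS library is about 0.05 CPM, so the size of the fall is uncertain for members near 0 in LPS.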
